A study of Homo sapiens with 3 samples.

Results

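The 40 cell cycle genes described here are a fixed list of gene symbols, and all 40 were found among the 33538 features counted in each library. They fall into 12 genes of DNA replication and the G1/S step, 18 genes of G2 and mitosis, 6 D cyclins and cyclin-dependent kinases, and 4 kinase inhibitors. The RNA came from clusters of SC-alpha cells, made to resemble the glucagon-secreting alpha cells of the pancreatic islet, which were grown from HUES8. HUES8 is an established line of human embryonic stem cells. The clusters were dispersed and captured with 10x Genomics 3' v3 chemistry in 3 replicate libraries of 1 group, with no second condition. No label says whether the replicates were separate differentiations. P-values thus measure only how the difference between cell groups varied from library to library, and that variation may be technical.

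All comparisons lie between groups of cells within the libraries. A barcode counted as a cell if it had 1000 or more genes and no more than 20% mitochondrial UMIs (unique molecular identifiers, each a counted RNA molecule), which left 1160, 1027 and 1466 cells in replicates 1, 2 and 3. GCG cells had at least 5% of their UMIs from GCG, the glucagon gene, and were 854, 860 and 914 cells. Cells below that share formed the other groups. FABP7 cells, with at least 3 UMIs of FABP7, a fatty-acid-binding protein of neural progenitors and glia, were 19, 2 and 41. Collagen cells, with at least 10 UMIs summed over COL1A1, COL1A2 and COL3A1, were 9, 9 and 87. TPH1 cells, with at least 3 UMIs of the serotonin-synthesis gene TPH1, were 33, 17 and 104. A further 245, 137 and 309 cells met none of these definitions, and 0, 2 and 11 that met more than 1 of them were left out of every group. None of the 40 genes was used to form a group.

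FABP7 cells also carried SOX2 and NES, which mark neural progenitors, at 224 to 504 CPM and 475 to 1023 CPM (counts per 1000000 UMIs of the summed cells), while the glial gene SOX10 was at 0 in every library, so these cells are named by FABP7 alone. TPH1 cells held FEV, DDC and SLC18A1 of enterochromaffin cells, but TAC1 was at 0. GCG cells had 206109 to 234857 CPM over 7 alpha markers. In the same cells 4 beta markers summed to 2206, 2700.5 and 447 CPM, nearly all of it INS, with MAFA at 0.326 CPM or less, and 3 delta markers to 1413, 2420 and 1273 CPM, nearly all of it SST. Collagen cells of replicates 1 and 2 also carried 2226 and 7054 CPM over ductal or epithelial markers, against 327 CPM in replicate 3, and the part of such cells in the results below was not tested. Median depth per cell was 13104, 35670.5 and 13635 UMIs in FABP7 cells, 16431, 10734 and 9446 in collagen cells, 11190, 13903 and 8022 in TPH1 cells, and 16492, 21810 and 10498.5 in GCG cells. The median mitochondrial share was 5.97 to 9.96% in FABP7 cells and 9.07 to 10.6% in collagen cells, against 14.5 to 15.5% in TPH1 cells and 14.8 to 15.1% in GCG cells. No kept barcode was shared between libraries.

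A cell enters the cycle when D cyclins with CDK4 or CDK6 phosphorylate the retinoblastoma protein and release E2F factors, which switch on the genes of DNA synthesis. Genes for mitosis are switched on later, and in resting cells the DREAM complex holds them down through a promoter element called the CHR. The factor NF-Y, which binds the CCAAT box, supports their expression. Endocrine cells of the islet largely leave the cycle as they form, and inhibitors such as CDKN1B and CDKN1C help to keep them out of it.

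The promoters of 5 members are shown because they hold, or lack, the letters through which these waves of transcription are known to be set. Each is the 250 bases before the RefSeq start on GRCh38.p14, read 5′ to 3′ in the gene's direction, with capitals on every match, on either strand, to the CHR (TTTGAA), the CCAAT box (CCAAT) or an E2F site (TTTGGCGC, TTTCCCGC, TTTCGCGC or TTTGCCGC). MKI67, CCNB2 and PLK1 are mitotic genes, MCM6 belongs to the replicative helicase, and CDK4 is a kinase of the resting and the cycling cell alike. They lie at chr10:128126424-128126673 (minus strand), chr15:59104896-59105145 (plus), chr16:23678639-23678888 (plus), chr2:135876444-135876693 (minus) and chr12:57752311-57752560 (minus).
MKI67: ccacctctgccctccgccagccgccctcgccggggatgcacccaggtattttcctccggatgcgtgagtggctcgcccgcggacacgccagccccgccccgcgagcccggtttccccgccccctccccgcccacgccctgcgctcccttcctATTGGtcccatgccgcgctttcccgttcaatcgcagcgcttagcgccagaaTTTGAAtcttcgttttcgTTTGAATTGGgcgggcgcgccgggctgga
CCNB2: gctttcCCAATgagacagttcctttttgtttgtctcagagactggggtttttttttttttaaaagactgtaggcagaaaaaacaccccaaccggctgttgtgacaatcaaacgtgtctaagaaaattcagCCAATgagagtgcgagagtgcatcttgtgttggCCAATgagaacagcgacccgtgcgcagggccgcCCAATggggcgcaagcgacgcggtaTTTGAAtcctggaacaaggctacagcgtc
PLK1: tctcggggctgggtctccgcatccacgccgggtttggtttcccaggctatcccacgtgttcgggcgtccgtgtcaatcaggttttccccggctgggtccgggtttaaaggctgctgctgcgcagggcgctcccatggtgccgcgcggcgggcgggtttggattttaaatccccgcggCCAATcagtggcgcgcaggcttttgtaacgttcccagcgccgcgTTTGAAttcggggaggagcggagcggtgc
MCM6: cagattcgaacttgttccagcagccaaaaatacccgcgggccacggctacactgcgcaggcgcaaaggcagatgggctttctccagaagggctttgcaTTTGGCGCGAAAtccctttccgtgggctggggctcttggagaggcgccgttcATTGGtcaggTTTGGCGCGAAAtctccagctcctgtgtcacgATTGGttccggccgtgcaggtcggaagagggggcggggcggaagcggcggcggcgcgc
CDK4: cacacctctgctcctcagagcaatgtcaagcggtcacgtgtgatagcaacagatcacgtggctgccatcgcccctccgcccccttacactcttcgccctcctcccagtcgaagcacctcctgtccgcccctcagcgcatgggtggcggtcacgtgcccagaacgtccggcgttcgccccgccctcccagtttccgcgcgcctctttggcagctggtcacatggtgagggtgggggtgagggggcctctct
The CHR letters began 29 bases before the start in MKI67, CCNB2 and PLK1 alike, and in MKI67 that match overlapped a CCAAT match on the other strand. This distance was not shared by all mitotic members, since the nearest CHR match began at 151 bases in TOP2A, 161 in CDK1 and 113 in ASPM. MCM6 held 4 E2F matches, which overlapped in pairs on opposite strands, and CDK4 held none of the 3 motifs. RefSeq promoters were matched for 29 of the 40 genes. Among 13 mitotic genes, the CHR was found in 6 and the CCAAT box in 13, against 13.6% and 33.0% of all 27303 promoters, and the E2F letters in 1. Among 9 replication genes, the E2F letters were found in 6, against 2.79% of all promoters, the CCAAT box in 6 and the CHR in 0. These are matches of letters and not measured sites.

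The mitotic genes were close to silent in GCG cells. MKI67, the proliferation antigen Ki-67 (chr10:128096659-128126385, GRCh38), had 239, 28.0 and 156 CPM in FABP7 cells of replicates 1, 2 and 3, and 256, 117 and 129 CPM in collagen cells. It had 0, 64.8 and 2.37 CPM in TPH1 cells and 24.6, 6.50 and 18.4 CPM in cells of no group, against 0.131, 4.96 and 0.0992 CPM in GCG cells. In GCG cells these were 2, 94 and 1 UMIs. Replicate 2 stood apart from the others in TPH1 and GCG cells, and most of these UMIs lay in a few cells, described below. In collagen cells of replicates 1 and 2, most UMIs of the mitotic genes lay in 1 cell each, as given below. In replicate 3, where FABP7 and collagen cells were most numerous, 914 GCG cells held a single MKI67 UMI.

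**Figure D1:**
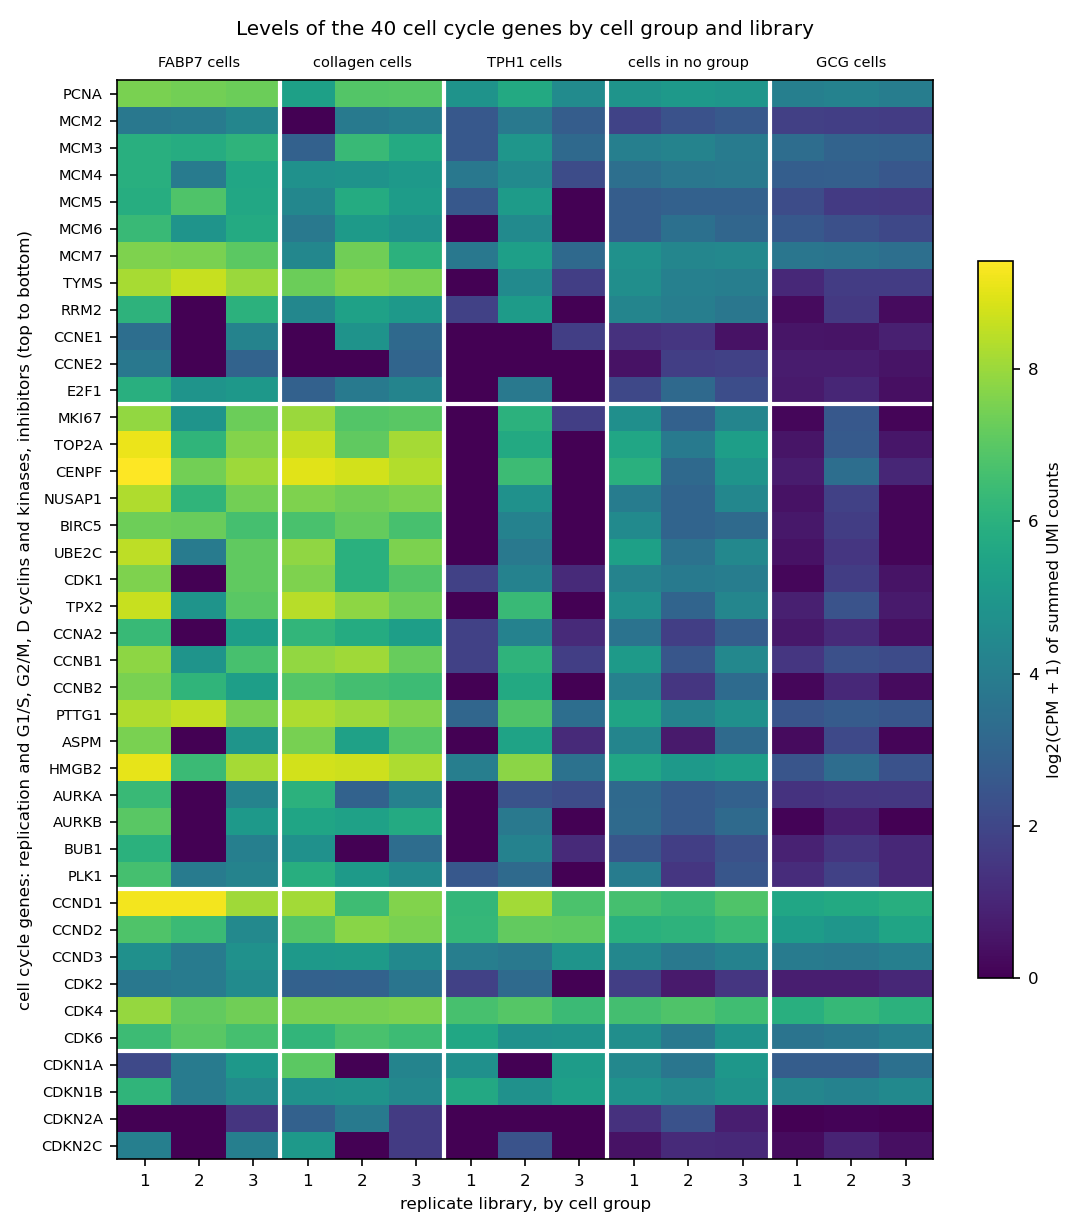
Level of each of the 40 cell cycle genes (rows, by role) in each cell group and replicate library (columns), as log2(CPM + 1) of the summed UMI counts. Replication and mitotic rows are bright in FABP7 and collagen cells and dark in GCG cells, while CCND1, CCND2 and CDK4 are lit in every column; the 2 FABP7 cells of replicate 2 fill 1 column.

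A cell was called cycling when at least 3 of 8 mitotic genes were detected in it: MKI67, TOP2A, CENPF, NUSAP1, BIRC5, UBE2C, CDK1 and TPX2. Intervals on shares are Clopper-Pearson at 95% and take in only the error of counting. Among FABP7 cells, 11 of 19 were cycling in replicate 1 (57.9%, 33.5 to 79.7%), 1 of 2 in replicate 2 and 18 of 41 in replicate 3 (43.9%, 28.5 to 60.3%). Among collagen cells, 3 of 9, 2 of 9 and 22 of 87 were cycling, or 26.9% ± 5.74 (SD, n = 3 libraries). Among TPH1 cells, 0 of 33, 1 of 17 and 0 of 104 were cycling, and among cells of no group 7 of 245, 7 of 137 and 9 of 309. GCG cells gave 3 of 854, 5 of 860 and 0 of 914, or 0.311% ± 0.293 (SD, n = 3), and 0.176% over replicates 1 and 3 alone. The 0 of replicate 3 has a Clopper-Pearson upper bound of 0.403%, and 3 counts of 914, the limit that a count of 0 allows, are 0.328%. With every cell thinned to 5000 UMIs, which left out 1, 0 and 4 FABP7 cells, 0, 0 and 8 collagen cells and 38, 85 and 53 GCG cells as shallower, the shares were 37.0% ± 2.65 in FABP7 cells of replicates 1 and 3, 26.1% ± 6.26 in collagen cells and 0.129% ± 0.223 in GCG cells. The choice of 3 genes cut through the groups at 6, 1 and 8 FABP7 cells and 1, 0 and 11 collagen cells with 2 or 3 of the 8 genes, and at 6, 2 and 1 GCG cells.

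**Figure D2:**
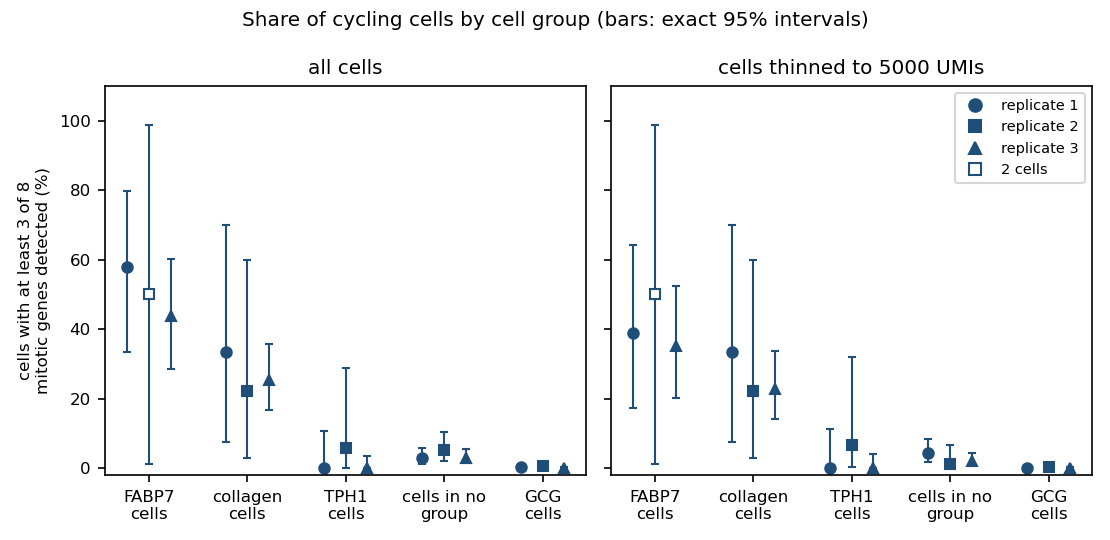
Share of cells with at least 3 of 8 mitotic genes (y, percent) by cell group and replicate, for all cells (left) and for cells thinned to 5000 UMIs (right); bars are exact 95% intervals. FABP7 and collagen cells lie far above GCG cells in both panels, and the open square rests on 2 cells.

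FABP7 cells made up 45.8% of the 24 cycling cells of replicate 1 and 36.7% of the 49 in replicate 3, while collagen cells made up 12.5% and 44.9% and GCG cells 12.5% and 0% of them. Replicate 2 had 17 cycling cells, of which 5.88% were FABP7 cells, 11.8% collagen cells, 41.2% cells of no group and 29.4% GCG cells. The 7, 7 and 9 cycling cells of no group held 25603, 50841 and 21711 CPM over the 7 alpha markers, against 228481, 234857 and 206109 CPM in GCG cells. A doublet caller marked none of the cycling cells.

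Replication genes gave a second readout of the cycle. PCNA, the sliding clamp of DNA polymerase, had 182, 168 and 157 CPM in FABP7 cells, 39.4, 117 and 120 CPM in collagen cells and 27.9, 51.8 and 22.5 CPM in TPH1 cells, against 15.9, 16.8 and 14.9 CPM in GCG cells. TYMS, which makes thymidylate for DNA, had 287, 392 and 254 CPM in FABP7 cells and 158, 206 and 181 CPM in collagen cells, against 1.11, 2.22 and 2.18 CPM in GCG cells. For both genes every FABP7 and every collagen value lay above every GCG value, which was also so for 26.4% of all genes tested in FABP7 cells and 26.3% in collagen cells. By at least 3 of 9 S-phase genes in thinned cells, 13 of 18 and 13 of 37 FABP7 cells were positive in replicates 1 and 3, and 2 of 9, 1 of 9 and 17 of 79 collagen cells, against 2 of 816, 4 of 775 and 0 of 861 GCG cells. Without thinning, the mean shares were 75.2% ± 20.2 in FABP7 cells (SD, n = 2), 38.6% ± 5.58 in collagen cells and 3.29% ± 2.09 in GCG cells (SD, n = 3 each), with 38 of 854, 39 of 860 and 8 of 914 GCG cells positive. In thinned FABP7 cells, 9 and 6 cells were positive for S-phase genes alone, 3 and 6 for mitotic genes alone and 4 and 7 for both in replicates 1 and 3.

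FABP7 cells were compared with GCG cells over all genes in replicates 1 and 3, since replicate 2 had only 2 FABP7 cells. Of the 40 genes, 35 were higher in FABP7 cells and 0 lower (edgeR, adjusted p under 0.05); 39 were tested, all but CDKN2A. Over all 13183 genes tested, 19.2% were higher and 22.7% lower. Of the members that passed the filter on low counts, 28 had under 5 CPM in GCG cells; a gene that passed only through the FABP7 cells had to differ, so the count is a description. With no filter, 35 were higher and 0 lower, beside 10.8% and 14.6% of all genes. All 12 replication genes and all 18 mitotic genes were among the 35, with median log2 fold changes of 3.74 and 8.46, beside −0.23 over all genes tested. The 3 comparisons reported here share the GCG sums.

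Among the replication genes, MCM7 of the helicase had 191 and 132 CPM in FABP7 cells of replicates 1 and 3, against 12.1 and 9.92 CPM in GCG cells, a log2 fold change of 3.47 ± 0.29 (SE, adjusted p = 1.66e-30). RRM2, the regulatory subunit of ribonucleotide reductase, rose most in this role, with 66.9 and 65.8 CPM against 0.196 and 0.198 CPM in GCG cells (7.87 ± 0.68, adjusted p = 2.77e-29). E2F1, the activating E2F factor, had 60.6 and 31.1 CPM in FABP7 cells, against 0.588 and 0.297 CPM in GCG cells (6.23 ± 0.72, adjusted p = 1.6e-16). MCM2 was the smallest rise, at 2.44 ± 0.74 (adjusted p = 0.00363), and it was not called by DESeq2 (adjusted p = 0.0948). The E cyclins CCNE1 and CCNE2, partners of CDK2 at the G1/S step, rose by 4.02 and 3.77 on counts of 13 and 8 UMIs in FABP7 cells.

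Mitotic genes differed most. TOP2A, the topoisomerase that untangles sister chromatids, had 558 and 202 CPM in FABP7 cells of replicates 1 and 3, against 0.457 and 0.496 CPM in GCG cells (9.21 ± 0.40, adjusted p = 1.46e-112). MKI67 had 165 UMIs in FABP7 cells and 3 in GCG cells, a pooled ratio of 1567 with an exact counting interval of 527 to 7676. AURKB, the kinase of the chromosomal passenger complex, had 59 UMIs and 1 UMI, a ratio of 1681 with an interval of 290.2 to 67504. Both ratios leave out replicate 2, and their size depends on that. Their intervals take in only the error of counting pooled UMIs, and not the spread between cells or libraries. In replicate 1, 1 FABP7 cell held 32.4% of the UMIs of the 8 genes that define a cycling cell. Over all 3 libraries, GCG cells held 97 MKI67 UMIs and 15 AURKB UMIs. The smaller rises were those of AURKA (4.19 ± 0.62), BUB1 (4.76 ± 0.71) and PLK1 (4.93 ± 0.64). The 10 mitotic genes that do not define a cycling cell were read in FABP7 cells of replicates 1 and 3. Cycling cells held 98.3% and 93.3% of their UMIs, and 75.3% and 75.8% of the replication UMIs. They also held 76.6% and 47.7% of the UMIs of D cyclins and kinases. The 11 and 18 cycling cells had means of 20459 and 15455 UMIs, of 313744 and 577880 UMIs in all FABP7 cells. The part of depth in these shares was not tested.

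The kinases and D cyclins moved less, with a median log2 fold change of 1.83. CCND1 had 612 and 268 CPM in FABP7 cells, against 47.1 and 59.6 CPM in GCG cells (2.56 ± 0.27, adjusted p = 3.41e-19), and CDK6 had 86.1 and 98.6 CPM against 11.2 and 16.1 CPM in GCG cells (2.38 ± 0.33, adjusted p = 9.16e-12). CDK4 (1.28 ± 0.26) and CDK2 (3.88 ± 0.78) also rose. CCND2 had 112 and 20.8 CPM in FABP7 cells, which lay on both sides of the 36.3 and 43.7 CPM of GCG cells (0.08 ± 0.33, adjusted p = 0.881), and CCND3 did not pass (0.40 ± 0.46, adjusted p = 0.505). Of the inhibitors, CDKN2C (p18) rose by 5.52 ± 0.90 (adjusted p = 8.57e-09), whereas CDKN1A (p21) at 0.76 ± 0.58 and CDKN1B (p27) at 0.66 ± 0.38 did not pass (adjusted p = 0.301 and 0.155).

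With the cells called cycling by mitotic genes left out of both groups, cells positive for S-phase genes alone stay in. Among those left (8 and 23 FABP7 cells in replicates 1 and 3), 14 of the 21 members tested were higher and 0 lower, of the 32 members that do not define a cycling cell, beside 7.22% of all genes higher and 13.0% lower. Replication genes were 9 of these 14, all of the 9 tested. CDK4 was no longer called (0.52 ± 0.37, adjusted p = 0.346). In the 9 FABP7 cells of replicate 3 with none of the 8 mitotic genes, MCM3, MCM4, MCM6 and RRM2 were at 0, TYMS was at 10.4 CPM and PCNA at 62.4 CPM. Of the 12 replication genes, 3 had at least 20 CPM there, and CCNB1 had 41.6 CPM. MCM2, MCM5, MCM7 and E2F1 were each detected in 1 of the 8 such cells that could be thinned. This sum is small, so a level of 0 cannot be told apart from the levels of GCG cells.

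**Figure D3:**
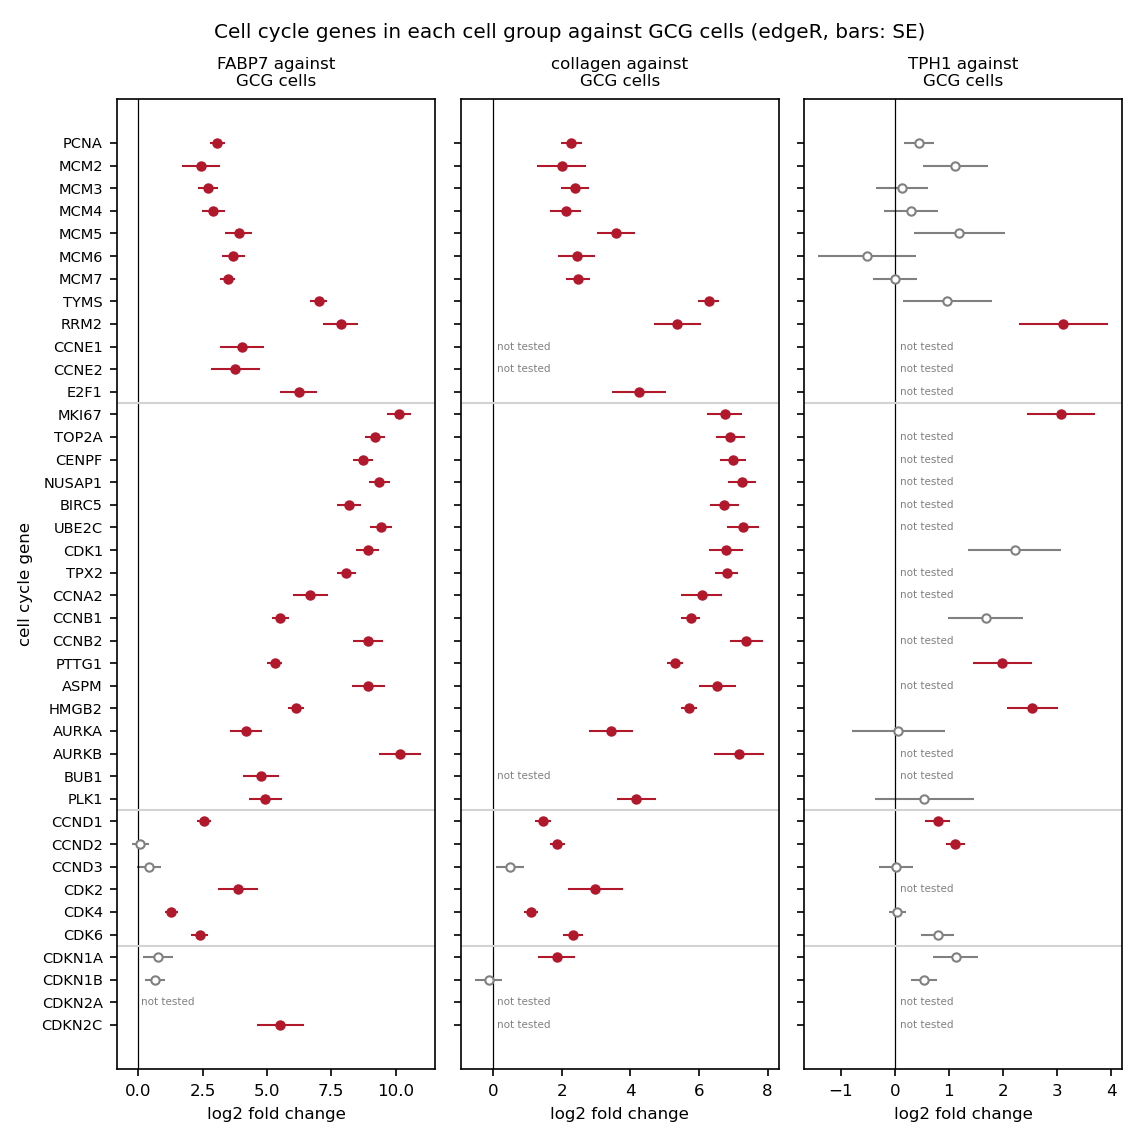
Log2 fold change of each cell cycle gene in FABP7, collagen and TPH1 cells against GCG cells (edgeR; bars are SE; filled red points passed an adjusted p of 0.05, open points did not). The panels have different x scales; mitotic genes lie furthest right in the FABP7 and collagen panels, and many were not tested in the TPH1 panel.

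Collagen cells showed a like set of rises. Of the 40 genes, 33 were higher than in GCG cells and 0 lower, of 35 tested over 3 libraries; CCNE1, CCNE2, BUB1, CDKN2A and CDKN2C were below the filter. Over all 12966 genes tested, 16.8% were higher and 27.7% lower. Among the tested members, 23 had under 5 CPM in GCG cells. With no filter, 37 were higher and 0 lower, beside 11.9% and 15.9% of all genes. With cycling cells left out of both groups, 15 of 19 members tested were higher and 0 lower, beside 11.9% and 23.1% of all genes. The median log2 fold change was 2.45 for replication genes and 6.75 for mitotic genes, beside −0.39 over all genes. Without replicate 3, which held 87 of the 105 collagen cells, 19 members were called, and 14 others, among them PCNA (1.81, adjusted p = 0.0654) and CDK4 (0.97, adjusted p = 0.0658), kept their direction without passing. For collagen cells too, the range of counts over all genes with a replicate left out is given below.

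CCNB2, a B cyclin that brings CDK1 into mitosis, had 118, 96.3 and 86.8 CPM in collagen cells, against 0.131, 1.11 and 0.198 CPM in GCG cells, and gave the largest fold of the members (7.37 ± 0.48, adjusted p = 2.29e-17). The collagen sums of replicates 1 and 2 have 9 cells each. There 1 cell held 71.0% and 64.5% of the UMIs of the 18 mitotic genes, against 15.4% in replicate 3. HMGB2, a chromatin protein of dividing cells, had 433, 419 and 303 CPM in collagen cells, against 4.57, 9.29 and 4.16 CPM in GCG cells (5.71 ± 0.24, adjusted p = 1.79e-24). TYMS rose by 6.28 ± 0.30 (adjusted p = 2.32e-22). CCND2, which did not pass in FABP7 cells, had 118, 213 and 184 CPM in collagen cells, against 36.3, 29.7 and 43.7 CPM in GCG cells (1.87 ± 0.23, adjusted p = 2.91e-09). CCND3 (0.48 ± 0.40) and CDKN1B (−0.14 ± 0.39) did not pass, with adjusted p of 0.342 and 0.807. CDKN1A passed (1.84 ± 0.54, adjusted p = 0.00444), but its CPM were 131, 0 and 17.8, 1 cell held 60.0% of its 20 UMIs in replicate 1, and it was not called without replicate 1 (0.43, adjusted p = 0.631).

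Few of these genes differed between TPH1 and GCG cells, and most of the calls rested on replicate 2. Of the 40 genes, 6 were higher and 0 lower, of 23 tested, beside 6.56% higher and 7.75% lower over all 12836 genes tested. With no filter, 12 were higher and 0 lower, beside 4.11% and 6.06% of all genes. Of the 23, 11 had under 5 CPM in GCG cells. The 6 were RRM2 (3.12 ± 0.82, adjusted p = 0.0139), MKI67 (3.07 ± 0.63, adjusted p = 0.00221), HMGB2 (2.55 ± 0.47, adjusted p = 0.000986), PTTG1 or securin (1.99 ± 0.54, adjusted p = 0.0177), CCND2 (1.12 ± 0.18, adjusted p = 0.000244) and CCND1 (0.79 ± 0.23, adjusted p = 0.0246). In replicate 2, a single TPH1 cell held 210 of the 212 UMIs of the mitotic genes. That cell had 31167 UMIs, 15 TPH1 UMIs, 10 SOX2 UMIs and 44 EPCAM UMIs, but 1 CHGA UMI and none of FEV, DDC or NEUROD1. For comparison, a cycling GCG cell of replicate 2 with 577 CHGA UMIs held 25 EPCAM UMIs. Whether the cycling TPH1 cell is an endocrine cell was not tested. Without replicate 2, HMGB2 (1.04, adjusted p = 0.184), PTTG1 (0.43, adjusted p = 0.694) and CCND1 (0.29, adjusted p = 0.294) were not called, and RRM2 and MKI67 were below the filter. Then 2 members were higher, CCND2 (0.95, adjusted p = 0.000392) and CDKN1A (1.43, adjusted p = 0.00371). MCM6 was then lower (adjusted p = 0.0288), with 0 UMIs in both TPH1 sums against 76 and 31 UMIs in GCG cells. Without replicate 1, and likewise without replicate 3, 11 members were called higher. The counts over all genes with a replicate left out are given below as a range, and these member counts are not read as a result.

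CCND2 was called in TPH1 cells with each replicate left out in turn. It had 76.2, 142 and 133 CPM in TPH1 cells, against 36.3, 29.7 and 43.7 CPM in GCG cells. The groups did not overlap, as was so for 42.2% of all genes tested, and with cycling cells left out of both groups it rose by 1.15 ± 0.17 (adjusted p = 2.42e-06). CDKN1A was then called as well (1.18 ± 0.37, adjusted p = 0.0203), making 2 of 18 members tested higher, beside 7.53% of all genes higher and 9.02% lower. Its counts were uneven, since 1 cell held 70.0% of its 10 UMIs in replicate 1 and 1 cell held 80.0% of its 30 UMIs in replicate 3. CDK4 had 101.6, 121 and 84.2 CPM in TPH1 cells, against 61.1, 77.5 and 65.2 CPM in GCG cells; the fit gave 0.05 ± 0.15 (adjusted p = 0.918). The fit rescales the sums. Over all genes tested in TPH1 cells, the median log2 ratio was 0.50 in plain CPM and −0.02 in the fit. These medians were 0.24 and −0.23 in FABP7 cells, and −0.03 and −0.39 in collagen cells. Plain CPM ratios are read against the gap between the medians.

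The 8 cycling GCG cells were of unlike kinds. Replicate 1 had 3, with 3 to 6 UMIs over the 8 mitotic genes, and of these 1 cell had 21 FABP7 UMIs beside 8.01% of its UMIs from GCG. In replicate 2, 2 cells had 6 and 7 such UMIs. Of these 5 cells, 3 had mitochondrial shares of 0.132, 0.589 and 0.650%, far below the medians of GCG cells given above. Replicate 2 also had 3 cells with 361, 174 and 41 such UMIs, and 7 or 8 of the 8 genes. These 3 held 34651, 49858 and 42292 UMIs, 10.0%, 14.4% and 12.8% of them from GCG, with 354, 577 and 519 UMIs of the granule gene CHGA and none of FABP7, TPH1 or the 3 collagens. By depth they stood at 89.4, 98.3 and 95.9 percent of the way up the ranked GCG cells of that library, and the doublet caller marked none of them. The 5 cycling cells of replicate 2 held 94.1% of its GCG-cell UMIs for the 8 genes. Whether they are single cells was not tested beyond the caller.

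Among resting GCG cells, defined by none of the 8 mitotic genes (819, 823 and 887 cells), 3 of the other 32 members were on, meaning at least 20 CPM in every library. CDK4, the G1 kinase (chr12:57747727-57756013), had 60.9, 77.6 and 64.4 CPM, or 67.6 ± 8.79 (SD, n = 3). CCND1 (chr11:69641087-69654474) had 46.7, 52.6 and 59.3 CPM, and CCND2 (chr12:4273772-4305350) had 35.6, 30.2 and 43.5 CPM. Of all 21366 genes detected in these cells, 24.2% were on by the same rule. The 3 levels kept their order in every library. CPM here are per UMI of 3' ends and are not set against gene length, so the order across genes is of counted molecules.

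Just below the limit stood the inhibitor CDKN1B, at 19.4, 17.1 and 20.8 CPM. PCNA (15.02 ± 0.65), CCND3 (14.3 ± 1.78) and CDK6 (13.4 ± 2.56 CPM) followed, and did not differ beyond their spread. MCM7 had 10.5 ± 0.83 CPM and CDKN1A 7.51 ± 2.52 CPM. Mitotic genes outside the defining 8 were low, with HMGB2 at 4.52 ± 0.53, PTTG1 at 3.90 ± 0.78 and CCNB1 at 2.42 ± 0.84 CPM, and AURKB, CCNB2 and ASPM at under 1 CPM in every library. CDKN2A, whose locus also codes for the protein ARF, had 1 UMI in all GCG cells. CDK2 was at 0.77 ± 0.31 CPM in resting GCG cells.

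In resting GCG cells thinned to 5000 UMIs, CDK4 was detected in 25.0, 30.9 and 28.6% of cells, CCND1 in 20.4, 24.7 and 27.2% and CCND2 in 13.9, 14.7 and 18.9%. TYMS was detected in 0.511, 0.270 and 1.55% of the same cells. None of the cell groups is known to lack D cyclins, so no share could serve as a background for them. No D cyclin was detected in 65.0, 60.7 and 55.3% of thinned cells, 1 of the 3 in 30.01, 34.5 and 36.6%, and 2 in 4.85, 4.72 and 7.28%.

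**Figure D4:**
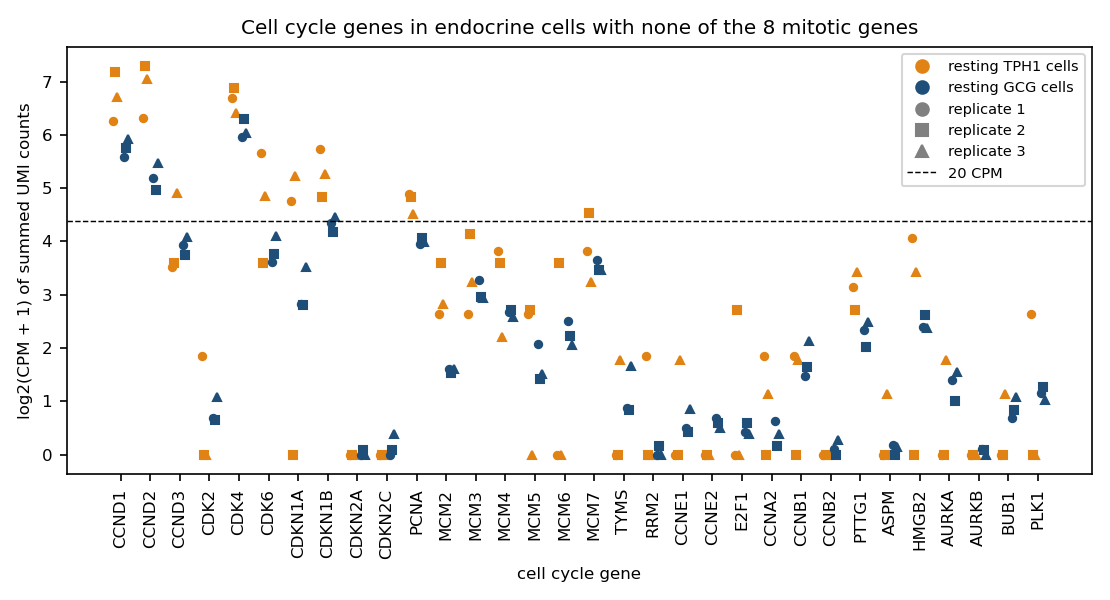
Level of the 32 members that do not define a resting cell, in resting TPH1 and resting GCG cells, as log2(CPM + 1) of summed counts; each point is 1 replicate and the dashed line marks 20 CPM. CDK4, CCND1 and CCND2 lie above the line in all 6 sums, and the mitotic genes at the right lie below it.

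Resting TPH1 cells (32, 15 and 101 cells) had 5 members on, beside 36.3% of 15954 detected genes. CCND2 had 78.3, 155 and 131 CPM and CCND1 had 75.7, 144 and 104 CPM, against 35.6, 30.2 and 43.5 CPM and 46.7, 52.6 and 59.3 CPM in resting GCG cells. CDK4 averaged 101 ± 16.3, CDKN1B 39.1 ± 12.3 and PCNA 26.1 ± 3.72 CPM in resting TPH1 cells. These are plain CPM, to be read against the general shift of 0.50 (log2) given above.

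Further cell cycle genes were read from 3 lists of 35 S-phase genes, 41 G2/M genes and 26 other regulators. The lists were chosen with earlier results known, and the shares of all genes called are those above. In FABP7 cells 27 of 31 S-phase genes tested, 36 of 40 G2/M genes and 4 of 25 regulators were higher than in GCG cells. In collagen cells the counts were 19 of 24, 35 of 40 and 5 of 25. In TPH1 cells they were 1 of 19, 4 of 21 and 1 of 25. Of the G2/M genes tested, 26 in each of the FABP7 and collagen comparisons had under 5 CPM in GCG cells. The counts are thus a description. With cycling cells left out, 7 of 22 S-phase and 3 of 22 G2/M genes were higher in FABP7 cells. In collagen cells 4 of 20 and 2 of 20 were then higher, and 2 G2/M genes were lower. CLSPN, a checkpoint adaptor at replication forks, had 131 and 77.9 CPM in FABP7 cells of replicates 1 and 3, against 0.326 and 0.397 CPM in GCG cells (7.74 ± 0.50, adjusted p = 5.45e-51). CENPA, the centromeric histone, had 76.5 and 22.5 CPM in FABP7 cells and 0 UMIs in GCG cells of those libraries. NDC80, of the kinetochore, had 72.2, 89.4 and 43.9 CPM in collagen cells, against 0.0653, 0.370 and 0.0992 CPM in GCG cells (8.13 ± 0.64, adjusted p = 1.2e-14). In TPH1 cells the G2/M genes called were GAS2L3 (2.99 ± 0.40), CENPE (2.27 ± 0.66), CKAP2 (1.22 ± 0.29) and JPT1 (0.84 ± 0.25), with NASP, a histone chaperone, of the S-phase list (0.62 ± 0.17).

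Of the 26 regulators, 25 were tested in each comparison. In FABP7 cells 4 were higher and 2 lower, beside 19.2% and 22.7% of all genes tested. In collagen cells 5 were higher and 2 lower, beside 16.8% and 27.7%. In TPH1 cells 1 was higher and 0 lower, beside 6.56% and 7.75%. The list as a whole is thus not read as a result, and single genes are described. CDKN1C (p57), a kinase inhibitor expressed in islet endocrine cells, had 22.3 and 41.5 CPM in FABP7 cells of replicates 1 and 3, against 117 and 215 CPM in GCG cells (−2.74 ± 0.33, adjusted p = 5.68e-15). In collagen cells, WEE1, the kinase that restrains CDK1, had 19.7, 41.3 and 24.1 CPM, against 53.7, 49.2 and 61.1 CPM in GCG cells (−1.44 ± 0.32, adjusted p = 0.000247), and RBL2 (p130), a pocket protein of the DREAM complex, fell by 1.78 ± 0.43 on the log2 scale (adjusted p = 0.000742). CDKN2B (p15) and the phosphatase CDC25B rose in collagen cells, by 2.77 ± 0.68 and 2.19 ± 0.44. TFDP2, a partner of E2F factors, was the regulator called in TPH1 cells (0.86 ± 0.18, adjusted p = 0.00229).

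In resting GCG cells, 10 of the 26 regulators, 7 of the 41 G2/M genes and 2 of the 35 S-phase genes were on. Over all genes detected in these cells, 24.2% were on by the same rule. The highest regulators were CCNI, an atypical cyclin (305 ± 21.4 CPM), CDKN1C (153 ± 52.7 CPM), WEE1 (54.6 ± 6.53 CPM) and TFDP2 (33.7 ± 4.08 CPM).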

How the data were processed

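Single-cell RNA was measured in 3 libraries of 1 group. Per the submitters' processing notes, the authors aligned and counted reads with Cell Ranger 4.0.0 on GRCh38, and the deposited values are raw UMI counts per gene and barcode. The libraries held 2850, 2576 and 4257 barcodes and 30139788, 31122791 and 30980799 UMIs, none of them with under 500 UMIs; 0 deposited columns were left unused.

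Counts were summed per library and cell group and scaled to CPM. Groups were compared with edgeR 4.0.16 (TMM, filterByExpr, quasi-likelihood test, library as block, Benjamini-Hochberg adjustment over all genes tested, R 4.3.3) and with DESeq2 1.42.0 as an alternative, after a test on simulated data. The library pairs the sums because both come from 1 capture. With so few libraries per fit, the spread of each gene was estimated with help from the other genes. Very small p-values thus do not rest on the spread of that gene alone. A sum needed at least 5 cells. Gene positions come from the GENCODE annotation of GRCh38. Scrublet (scanpy 1.11.5) called 0.623% of 4812 barcodes doublets, and those were kept. The genes, lists and groups were chosen with earlier results of these data known. Named further genes were the 4 with the largest fold among those called, with 1 sign in every library, in each list, and the 4 highest regulators in resting GCG cells; not all of them are printed.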

Additional observations from a re-analysis of the deposited data

Results flagged for a closer look

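Cells with at least 3 of the 8 mitotic genes also occurred among barcodes that the limits on genes and mitochondrial share left out. They were 1.35% of the 739 barcodes over the mitochondrial limit in replicate 1 (10 barcodes, of which 3 met the GCG definition) and 1.01% of the 992 in replicate 3 (10 barcodes). Among barcodes with too few genes they were 0.526% of 951 in replicate 1 and 0.389% of 1799 in replicate 3. Each of these shares was above the limit that a count of 0 allows. In replicate 2 the counts were 0 of 313 and 3 of 1236 barcodes.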

How the results depend on the processing

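In FABP7 cells, 2529 of all genes were higher and 2986 lower. DESeq2 called 1494 and 1126, and cells thinned to 5000 UMIs gave 1285 and 1531. Leaving out cycling cells gave 917 and 1655, with 14 higher of the 21 members tested outside the 8 defining genes. The other alternatives called 29 to 35 of the 40. CCND2 turned to −0.056 with DESeq2, −0.046 with all 3 libraries (chosen after seeing the data), −0.0023 and −0.00086 at mitochondrial limits of 15 and 30% and −0.025 with no filter, and CDKN1B to −0.92 without cycling cells. Leaving out a replicate would leave 1 library, so no such test was made. In collagen cells (2181 higher, 3588 lower), DESeq2 called 2062 lower and thinning gave 939 and 1612. Without cycling cells, 15 were higher of the 19 members tested outside the 8 defining genes. Leaving out each replicate gave 773 to 2370 higher, 787 to 2457 lower and 19 to 34 of the 40, with CDKN1B at −0.13 to 0.17. In TPH1 cells (842 higher, 995 lower), DESeq2 called 526 lower. Mitochondrial limits of 15 and 30% gave 405 and 1296 higher, the first with 422 lower. With no filter 12 of the 40 genes were higher, against 2 thinned and 2 without the replicate block. Without cycling cells, 2 were higher of the 18 members tested outside the 8 defining genes. Leaving out each replicate gave 535 to 906 genes higher, 2 to 11 of the 40 higher and 0 to 1 lower. Without the replicate block the FABP7 and collagen counts were 35 and 33 of the 40. Reversals in TPH1 cells, none of them called, were AURKA at −0.067 (DESeq2) and −0.020 (no filter), CCND3 at −0.054 and −0.044 under the same settings, CDK4 at −0.032 (at least 10 TPH1 UMIs) and −0.027 (no filter), MCM4 at −0.091 (at least 10 TPH1 UMIs) and −0.037 (thinned), and CCNB1 at −0.90 without cycling cells. MCM7 was −0.031 with GCG cells at 10% or more, −0.00062 with GCG cells free of the other markers, −0.30 with at least 10 TPH1 UMIs, −0.11 at 2000 genes, −0.092 without cycling cells, −0.14 at the 30% limit, −0.077 with no filter, −0.096 without the block and −0.87 thinned. Leaving out each replicate in TPH1 cells, the log2 fold changes ran from −0.62 to 0.53 for AURKA, −0.50 to 0.17 for CCND3, −0.026 to 0.12 for CDK4, −0.024 to 1.27 for PLK1, −0.54 to 0.62 for MCM3, −0.14 to 0.83 for MCM4, −1.07 to 2.02 for MCM5, −7.65 to 0.32 for MCM6, −0.60 to 0.39 for MCM7, −0.67 to 1.75 for TYMS and −0.72 to 2.64 for CCNB1. The cycling share was 63.5% in FABP7 cells and 34.5% in collagen cells at 2 of 8 genes, and in FABP7 cells 37.9% at 4 of 8 and 37.0% thinned. At 50 CPM, 1 of the 40 genes counted as on in resting GCG cells. The causes were not tested, beyond the smaller counts that thinning and left-out cells bring. Of the single-gene values under other settings, 505, 512 and 274 kept direction and call in FABP7, collagen and TPH1 cells. Depth limits the smaller sums: replicate 2 had 2 FABP7, 9 collagen and 17 TPH1 cells.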

Other observations

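Cells in no group, 245, 137 and 309 in replicates 1, 2 and 3, were described by the same genes. TYMS had 24.2, 15.96 and 15.4 CPM in cells of no group, against 1.11, 2.22 and 2.18 CPM in GCG cells. CCND1 had 98.4, 83.3 and 112 CPM in cells of no group, against 47.1, 52.3 and 59.6 CPM in GCG cells. The 18 mitotic genes together had 456 CPM, 149 CPM and 297 CPM in cells of no group, against 19.1, 64.2 and 19.9 CPM in GCG cells, and of the 10 that do not define a cycling cell, cycling cells held 86.6, 74.0 and 81.9% of the UMIs in cells of no group. These values were not tested.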
